A study of Mus musculus with 16 samples.

Results

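The genes of purine salvage and breakdown considered here were *Hprt*, *Aprt*, *Adk*, *Dck*, *Ada*, *Adal*, *Pnp*, *Ampd2*, *Ampd3* and *Samhd1*, chosen by name and matched by symbol in the count tables of 2 experiments. All 10 were found among the 15386 genes of the RNA-seq table and among the 13490 genes of the m6A table, and all 10 passed the filter on low counts in either. The RNA-seq compared 3 libraries of control CFU-E cells with 3 whose label reads *Mettl3*-deficient CFU-E Kit-lo (Kit-lo libraries), all sorted from mouse bone marrow. CFU-E cells are committed erythroid progenitors that precede the proerythroblast, and the Kit-lo gate takes cells with scarcely any of the receptor Kit at their surface. The second experiment was SLIM-seq, a low-input form of m6A sequencing, in which RNA of control CFU-E cells was sequenced as input (2 libraries) and as the fraction recovered by immunoprecipitation (IP, 2 libraries) with an antibody to N6-methyladenosine (m6A). The 6 proerythroblast samples of the series were not analysed here.

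The *Mettl3*-deficient mice were *Mettl3* fl/fl EpoR Cre/- animals on a C57BL/6 background, adults of both sexes. The Cre was driven from *EpoR* (EpoR-tdTomato-Cre), which also acts in macrophages of the erythroblastic island and in part in hematopoietic stem cells. The labels give the other group as control, without a genotype, and do not say whether the libraries of a group came from separate animals, so that p-values measure the spread between these libraries. Genotype and the Kit gate changed together, and their parts in any difference cannot be told apart. *Mettl3* itself was at 115, 123 and 130 CPM (counts scaled to a common library total, with TMM factors) in control libraries, and values of 117, 127 and 107 CPM were found in Kit-lo libraries. Its summed count was thus not lower in the latter beyond the spread between libraries (log2 fold change -0.07, edgeR adjusted p = 0.63), and the directions given here rest on the labels. A count summed over a gene does not show which of its exons were present. In erythroid cells of these mice, the study reports loss of *Mettl3* mRNA by qRT-PCR and of its protein by blot. It also reports a lower global m6A level there. The gate was visible in *Kit*, at 544, 629 and 621 CPM in control and 68.5, 53.1 and 43.9 CPM in Kit-lo libraries.

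Cells make purine nucleotides either from small precursors or by salvage, in which free bases and nucleosides are joined again to phosphoribose or phosphate. Breakdown runs the other way: AMP and adenosine lose their amino group, nucleosides are split into base and sugar phosphate, and spare deoxynucleotides are dephosphorylated. Mature red cells lack the route from precursors and keep their purines by salvage. METTL3 is the catalytic subunit of the enzyme complex that writes m6A on mRNA.

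Among the 10 enzymes, *Dck* and *Ada* were higher and *Adal* was lower in Kit-lo than in control libraries, by the study's thresholds for differentially expressed genes (DEGs), a fold change of at least 1.5 and an adjusted p under 0.05. The 2 that rose compare with 12.1% of the 11979 genes tested that were called higher, and the 1 that fell with 9.83% called lower. Without the fold threshold, 4 enzymes were higher (*Dck*, *Ada*, *Pnp* and *Ampd3*; 17.6% of all genes tested) and 4 were lower (*Adal*, *Hprt*, *Aprt* and *Adk*; 16.9%) at an adjusted p under 0.05. The values of the groups did not overlap for 8 of the 10, against 47.5% of all genes tested. The median log2 fold change of the 10 was -0.08 beside 0.01 over all genes tested, and the median size of the change, in either direction, was 0.42 beside 0.38. For single genes, p-values are from the quasi-likelihood test of edgeR and were adjusted over all genes tested by Benjamini-Hochberg.

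**Figure D1:**
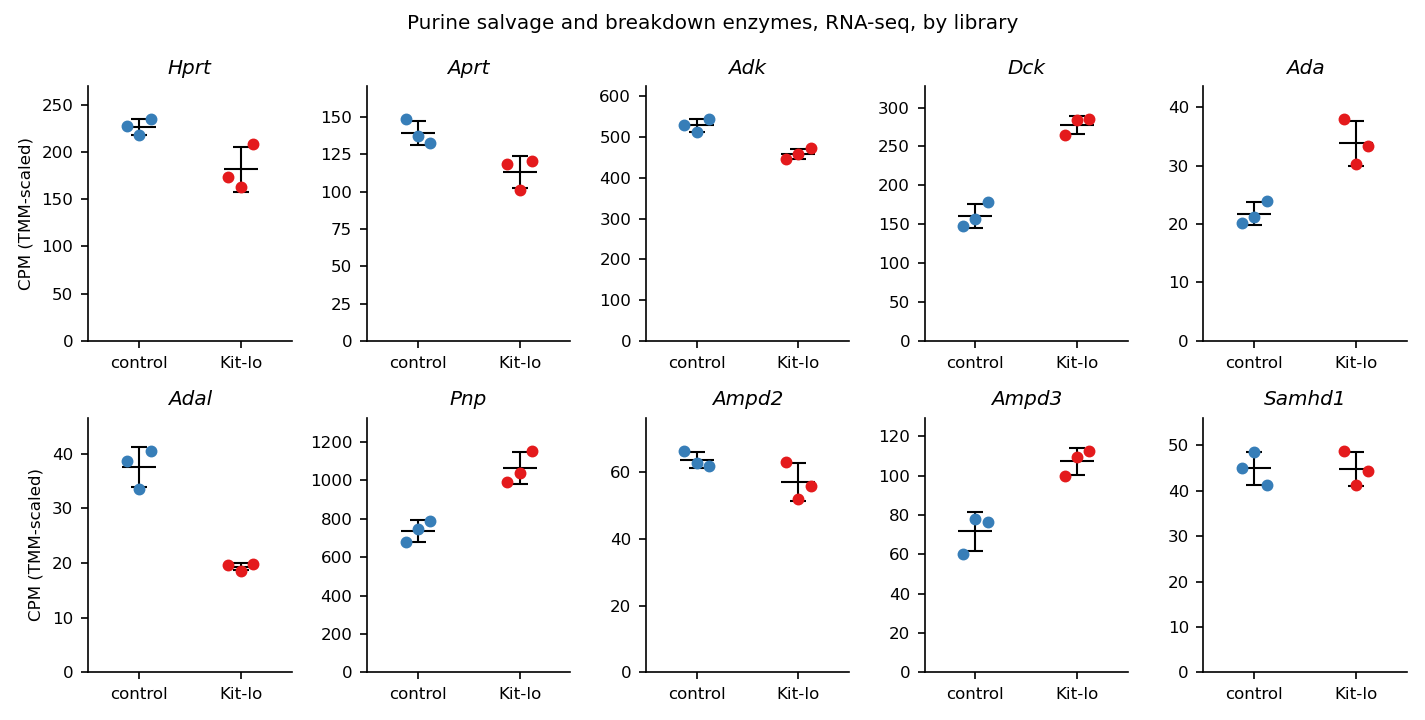
CPM (TMM-scaled, each axis from 0) of the 10 enzymes in every RNA-seq library, with control CFU-E in blue and Kit-lo libraries in red (n = 3 each). Bars give the mean and SD. The groups overlap only for Ampd2 and Samhd1.

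Bone marrow CFU-E identity was checked by lists of markers. The summed level of 10 erythroid identity genes ran from 17399 to 18166 CPM in control and from 13441 to 14804 CPM in Kit-lo libraries, although 4 of the 10 were called higher (*Klf1*, *Epor*, *Nfe2* and *Rhd*) and 1 lower (*Car1*). Late erythroid genes ran from 326 to 362 CPM in control and from 2807 to 4688 CPM in Kit-lo libraries, with 7 of 9 tested higher (*Alas2*, *Slc4a1* and globin genes among them), while early progenitor genes ran from 728 to 826 CPM and from 72.6 to 94.6 CPM, with 3 of 5 lower (*Kit*, *Gata2*, *Myb*). *Kit*, on which the gate was set, ran from 544 to 629 CPM and from 43.9 to 68.5 CPM within that sum. The early progenitor list is therefore not independent of the gate. Macrophage genes summed to 11.5 to 16.1 CPM in control and 10.1 to 16.2 CPM in Kit-lo libraries (1 of 7 tested lower), and granulocyte genes to 25.8 to 39.2 and 16.1 to 24.7 CPM (1 of 4 higher, 1 lower). Lymphoid genes summed to 0.957 to 3.20 and 3.94 to 6.51 CPM (1 of 1 tested higher, *Ighm*), and megakaryocyte genes to 4.31 to 6.63 and 6.72 to 16.01 CPM (2 of 3 higher). The macrophage sums overlapped between the groups, and those of the other lists did not. The part of these lists in the results was not tested. In bulk libraries, fewer cells of a kind and less of an mRNA per cell cannot be told apart.

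Base salvage rests on *Hprt* and *Aprt*, which attach phosphoribose to hypoxanthine or guanine and to adenine, respectively. *Hprt* (chrX:52988137-53021659, plus strand, GRCm38) was at 228, 218 and 235 CPM in control and at 173, 163 and 208 CPM in Kit-lo libraries. Each Kit-lo library lay below each control library, and the means were 227 ± 8.53 and 181 ± 24.0 CPM (SD, n = 3). The change of *Hprt* on the log2 scale was -0.32 (standard error 0.10, edgeR adjusted p = 0.033), which is a fold of 1.25 and short of the threshold for DEGs. *Aprt* (chr8:122574635-122576909, minus strand) was at 148, 137 and 133 CPM in control and at 118, 101 and 120.5 CPM in Kit-lo libraries. These values did not overlap either, and averaged 139 ± 8.14 and 113 ± 10.7 CPM (SD, n = 3). On the log2 scale *Aprt* changed by -0.30 (standard error 0.10, edgeR adjusted p = 0.038). Both base salvage enzymes were thus lower in Kit-lo libraries, each by less than 1.5-fold. Their adjusted p rose above 0.05 in 5 of 13 alternatives for *Hprt* (up to 0.12) and in 5 of 13 for *Aprt* (up to 0.16), among them 5 and 4 of the 6 that left out 1 library.

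The nucleoside kinases moved in opposite directions. *Adk*, adenosine kinase, phosphorylates adenosine to AMP. It lies at chr14:21052574-21448569 on the plus strand, and was at 528, 513 and 543 CPM in control and 447, 458 and 472 CPM in Kit-lo libraries. The groups were apart by more than their spread, with means of 528 ± 15.3 and 459 ± 12.7 CPM (SD, n = 3). For *Adk* the log2 fold change was -0.20 (standard error 0.07, edgeR adjusted p = 0.044), and the adjusted p was above 0.05 in 9 of 13 alternatives (up to 0.13), including all 6 that left out 1 library. *Dck*, deoxycytidine kinase, phosphorylates deoxycytidine, deoxyadenosine and deoxyguanosine and feeds the pool of DNA precursors. It lies at chr5:88764996-88783281 on the plus strand, and was at 147, 156 and 178 CPM in control and 264, 284 and 285 CPM in Kit-lo libraries. Every Kit-lo library exceeded every control library by far more than the spread within a group, and the means were 161 ± 16.02 and 278 ± 11.6 CPM (SD, n = 3). *Dck* rose by 1.73-fold (log2 fold change 0.79, standard error 0.09, edgeR adjusted p = 0.00014), with a 95% confidence interval of 1.502- to 1.99-fold. It was the enzyme of the 10 with the largest rise, and it kept its call in the 13 alternatives that refitted the data, but not when the fold of 1.5 was itself the tested hypothesis.

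Deamination and phosphorolysis take purine nucleosides apart, and 2 of the 3 enzymes of this step had a changed level by the DEG thresholds. *Ada*, adenosine deaminase, converts adenosine and deoxyadenosine to inosine and deoxyinosine. At chr2:163726584-163750239 on the minus strand, *Ada* was at 20.2, 21.3 and 23.9 CPM in control and 37.9, 30.2 and 33.3 CPM in Kit-lo libraries. The groups did not overlap, with means of 21.8 ± 1.90 and 33.8 ± 3.89 CPM (SD, n = 3). A rise of 1.55-fold was found for *Ada* (log2 fold change 0.63, standard error 0.14, edgeR adjusted p = 0.0067), with a 95% confidence interval of 1.24- to 1.94-fold. It fell under the fold threshold without control replicate 1 (log2 fold change 0.58) or without Kit-lo replicate 1 (0.54), though its adjusted p stayed under 0.05 in all 13 alternatives. No word of 31 bases in the transcripts of *Ada* or of *Hprt* was shared with another annotated gene, and for the other enzymes except *Pnp* the share was at most 2.34%.

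*Adal*, the adenosine deaminase-like protein, acts not on adenosine but on N6-methyl-AMP, from which it removes the methylated amino group to give IMP, and so disposes of the modified nucleotide that is set free when m6A-bearing RNA is degraded. At chr2:121140428-121156680 on the plus strand, *Adal* was at 38.7, 33.5 and 40.5 CPM in control and at 19.6, 18.6 and 19.7 CPM in Kit-lo libraries. All 3 Kit-lo libraries were close together and well below the lowest control library, with means of 37.6 ± 3.65 and 19.3 ± 0.628 CPM (SD, n = 3). On the log2 scale *Adal* changed by -0.96 (standard error 0.13, edgeR adjusted p = 0.00041), a 1.95-fold lower level and the largest change among the 10. On the opposite strand, *Lcmt2* overlaps 4.25% of the exonic bases of *Adal*, and its own log2 fold change was 1.73, in the other direction. Whether the counting used strand is not stated in the sources used here. The call for *Adal* held in all 13 alternatives, with log2 fold changes from -1.04 to -0.91.

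*Pnp*, purine nucleoside phosphorylase, splits inosine, guanosine and their deoxy forms into base and sugar phosphate, and thereby supplies the bases that *Hprt* takes back. *Pnp* (chr14:50931082-50965237, plus strand) was at 678, 747 and 791 CPM in control and at 993, 1039.6 and 1155 CPM in Kit-lo libraries. The lowest Kit-lo library exceeded the highest control library, and the means were 739 ± 57.1 and 1062 ± 83.3 CPM (SD, n = 3). Its level differed by 0.52 on the log2 scale (standard error 0.09, edgeR adjusted p = 0.0012), a fold of 1.44 that fell short of 1.5. Another gene, *Pnp2* (chr14:50955992-50964749), encodes a close relative of the enzyme and lies within the annotated interval of *Pnp*, on the same strand. In an alignment over 870 bases, the length of the *Pnp* coding sequence, 20 bases differed (97.7% identity), and the longest identical run was 292 bases. The first 120 coding bases of *Pnp*, at chr14:50944583-50947960, and the matching 120 of *Pnp2*, at chr14:50956218-50959623 (both spliced, plus strand of GRCm38), are shown because they make plain how few letters tell the genes apart, with the 2 bases that differ in capitals.
Pnp: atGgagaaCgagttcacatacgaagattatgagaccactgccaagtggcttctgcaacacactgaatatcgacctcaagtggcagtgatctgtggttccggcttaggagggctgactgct
Pnp2: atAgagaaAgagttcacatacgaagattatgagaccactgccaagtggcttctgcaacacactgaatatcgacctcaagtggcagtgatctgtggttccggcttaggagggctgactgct
Of the 31-base words in transcripts of *Pnp2*, 38.3% were also in *Pnp*, and 22.9% of those of *Pnp* were in some other gene, most often *Gm49342*, which overlaps it. The way the counting split reads between them is therefore uncertain for both. As counted, *Pnp2* was at 48.8, 53.5 and 53.3 CPM in control and 178, 155 and 168 CPM in Kit-lo libraries, a log2 fold change of 1.69 (standard error 0.10, edgeR adjusted p = 2.4e-06). With the counts of *Pnp* and *Pnp2* added together, an alternative chosen after seeing the data, the log2 fold change of the sum was 0.64 (edgeR adjusted p = 0.00030), which is past the fold threshold.

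The AMP deaminases convert AMP to IMP, and *Ampd3* is the form named for erythrocytes. *Ampd2* (chr3:108074062-108086651, minus strand) was at 66.5, 62.9 and 62.1 CPM in control and at 63.2, 51.9 and 56.0 CPM in Kit-lo libraries, so the groups overlapped. Its log2 fold change of -0.16 (standard error 0.11) did not pass the test (edgeR adjusted p = 0.29), with a 95% confidence interval for the ratio of Kit-lo to control of 0.754 to 1.06. *Ampd3* (chr7:110768206-110812405, plus strand) was at 60.3, 78.1 and 76.7 CPM in control and at 99.7, 109 and 113 CPM in Kit-lo libraries, with means of 71.7 ± 9.90 and 107 ± 6.75 CPM (SD, n = 3). The groups did not overlap, and *Ampd3* differed by 0.58 on the log2 scale (standard error 0.12, edgeR adjusted p = 0.0039). This equals a fold of 1.496, just under the threshold of 1.5, and *Ampd3* passed that threshold in 6 of 13 alternatives, 4 of which left out 1 library each (0.64 and 0.63 on the log2 scale without control replicates 2 and 3, 0.63 and 0.59 without Kit-lo replicates 1 and 2). *Ampd3* made up 45.7%, 53.6% and 53.4% of the summed *Ampd2* and *Ampd3* counts per kilobase of exon of each control library and 59.4%, 66.2% and 65.1% of each Kit-lo library. The share was 50.9 ± 4.50% and 63.6 ± 3.64% (SD, n = 3), 12.7 percentage points higher in Kit-lo libraries (two-sided exact permutation test, p = 0.1, the smallest that 3 against 3 libraries can give). Genes on the opposite strand overlap 8.31% of the exonic bases of *Ampd2* and 6.95% of those of *Ampd3*.

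*Samhd1* encodes the enzyme that strips the triphosphate from deoxynucleotides and so limits their pool. At chr2:157097533-157135265 on the minus strand, *Samhd1* was at 44.9, 48.6 and 41.3 CPM in control and at 48.8, 41.3 and 44.3 CPM in Kit-lo libraries. The groups overlapped throughout, and the ratio of Kit-lo to control had a 95% confidence interval of 0.828 to 1.20 (edgeR adjusted p = 0.99). In none of the 13 alternatives did *Samhd1* pass the test.

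**Figure D2:**
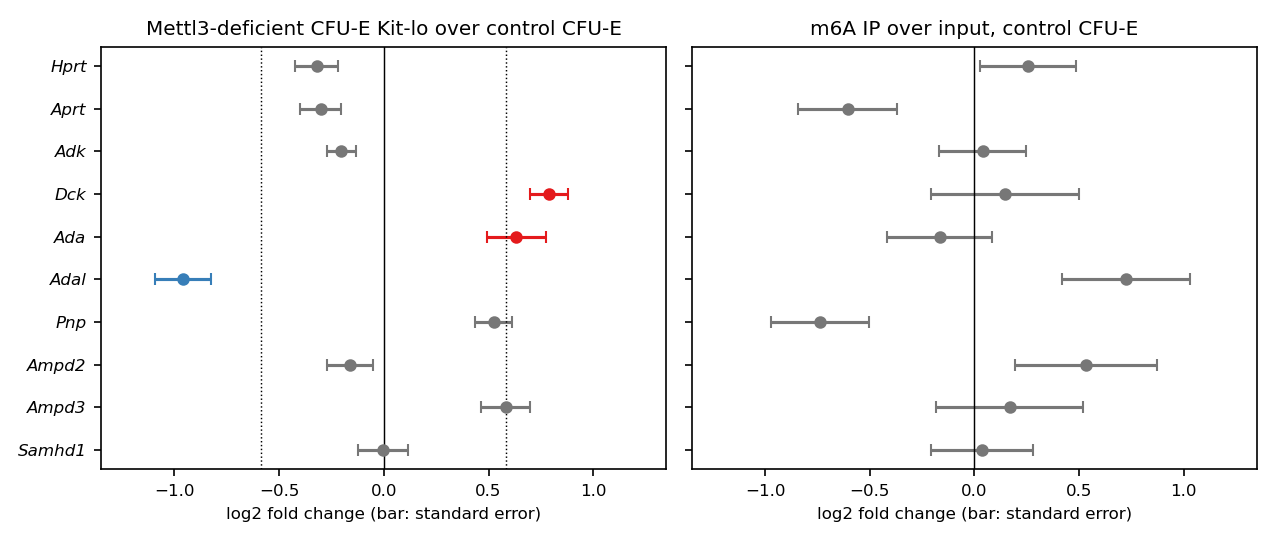
Log2 fold changes of the 10 enzymes with their standard errors, for Mettl3-deficient CFU-E Kit-lo over control CFU-E (left, n = 3 each, dotted lines at a fold of 1.5) and for m6A IP over input in control CFU-E (right, n = 2 each). Red and blue mark genes called higher and lower, and grey the others. Dck and Ada are red and Adal is blue on the left, and none is called on the right.

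Levels per kilobase of exon, with all annotated exons of a gene merged, set the enzymes in order within each group. By this length, *Pnp* (186 ± 14.3 CPM per kb, SD, n = 3) and *Hprt* (176 ± 6.62) stood highest in control CFU-E and did not differ beyond their spread. They were followed by *Aprt* (86.4 ± 5.04), *Adk* (62.0 ± 1.79) and *Dck* (42.5 ± 4.24), each with values apart from its neighbours. *Ampd3* (12.7 ± 1.76), *Ampd2* (12.2 ± 0.454) and *Ada* (10.9 ± 0.947) overlapped with their neighbours among these, and *Adal* (7.07 ± 0.686) and *Samhd1* (4.91 ± 0.397) came last. In Kit-lo libraries the order changed at several places. *Pnp* (267 ± 20.9 CPM per kb) stood clear of *Hprt* (141 ± 18.6). *Dck* (73.4 ± 3.08) had moved from below *Adk* (53.8 ± 1.49) to a level that overlapped that of *Aprt* (70.1 ± 6.65). *Ada* (16.9 ± 1.94) stood above *Ampd2* (10.9 ± 1.10), with no overlap. *Samhd1* (4.90 ± 0.411) now exceeded *Adal* (3.63 ± 0.118), again with no overlap, and *Adal* was the lowest of the 10. These orders depend on the length used. The merged exons of *Adk* span 8526 bases, but its longest protein-coding transcript has 1818. For *Samhd1* the lengths were 9150 and 3926, and for *Hprt* 1289 by either. By transcript length *Adk* would stand higher than given here in both groups. The order between enzymes, with the place of *Adk* above or below *Pnp*, *Hprt* and *Dck*, is therefore not settled.

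**Figure D3:**
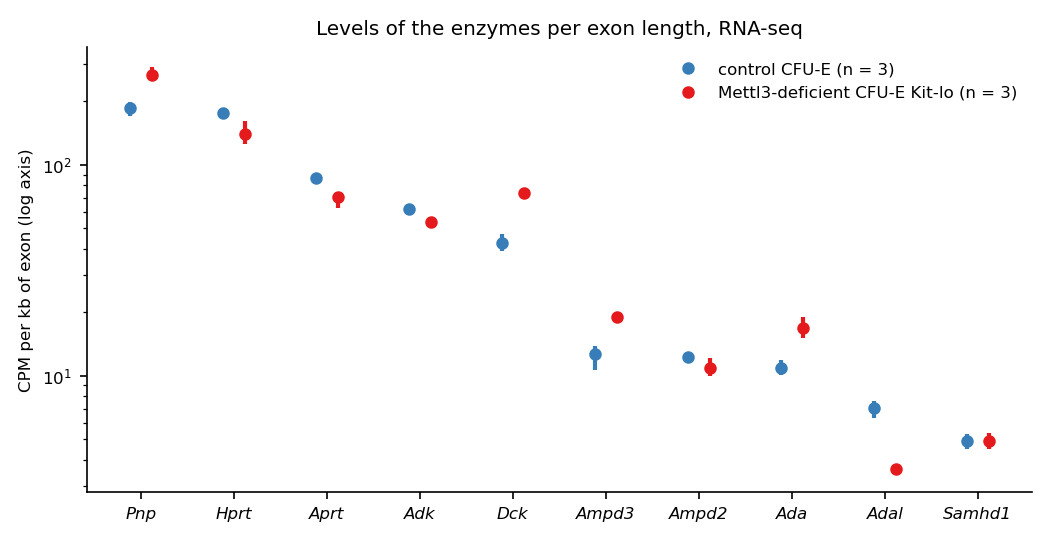
Levels of the 10 enzymes in CPM per kilobase of exon (all annotated exons of a gene merged, log axis), ordered by the control mean. Points are means and lines run from the lowest to the highest of 3 RNA-seq libraries, in blue for control CFU-E and red for Mettl3-deficient CFU-E Kit-lo. Pnp and Hprt start level, at 186 and 176, and are 267 and 141 in the Kit-lo libraries.

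The m6A experiment asked which transcripts of control CFU-E cells were held by the antibody. No enzyme of the 10 was called higher or lower in IP than in input by edgeR at an adjusted p under 0.05, where 7.9% of the 11447 genes tested were higher and 7.86% were lower. At an unadjusted p under 0.05 there were 3 (*Adal*, *Aprt* and *Pnp*), and DESeq2 called 1, *Pnp*, which was lower in IP. With the replicate number as a block, edgeR called 2 lower in IP, *Aprt* and *Pnp* (adjusted p = 0.00995 and 0.0018). That fit called 1755 of the 11447 genes lower, and no pairing of the libraries is stated. Input and IP values did not overlap for 5 of the 10, against 60.9% of all genes tested. The median log2 fold change of IP over input was 0.09 for the 10 and 0.06 over all genes. This scale depends on the normalization: with library sizes alone or upper-quartile scaling the median over all genes was 0.21 or 0.18, and the calls over all genes, 904 higher and 900 lower, became 934 and 608 or 1451 and 754.

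*Adal* had the largest point estimate above 0. It was at 5.90 and 4.66 CPM in input and 9.75 and 7.68 CPM in IP, and both IP libraries were above both input libraries. Its log2 fold change of 0.72 (standard error 0.31) did not pass (edgeR adjusted p = 0.13), and the 95% confidence interval reached from 1.03- to 2.64-fold. *Pnp* had the largest below 0, at 492 and 600 CPM in input and 283 and 371 CPM in IP, again without overlap. For *Pnp* the log2 fold change was -0.74 (standard error 0.24, edgeR adjusted p = 0.058), and without IP replicate 2 it was -0.95 and passed the test (edgeR adjusted p = 0.021). *Aprt* was at 340 and 329 CPM in input and at 179.8 and 260.03 CPM in IP (log2 fold change -0.61, standard error 0.24, edgeR adjusted p = 0.11), and it too passed without IP replicate 2 (-0.90, edgeR adjusted p = 0.025). *Ampd2*, at 5.33 and 6.97 CPM in input and 11.2 and 6.48 CPM in IP, overlapped between input and IP (log2 fold change 0.53, standard error 0.34, edgeR adjusted p = 0.31). *Hprt* was at 245 and 328 CPM in input and 319 and 366 CPM in IP, also with an overlap (log2 fold change 0.26, standard error 0.23).

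The other 5 enzymes had log2 fold changes between -0.17 and 0.17. *Adk*, an abundant transcript, was at 381 and 376 CPM in input and 394 and 383 CPM in IP. Its 95% confidence interval for IP over input was 0.746- to 1.41-fold, the narrowest of the 10. *Samhd1* was at 26.2 and 23.2 CPM in input and 27.3 and 23.4 CPM in IP, and *Ada* was at 16.6 and 17.4 CPM in input and 15.4 and 14.9 CPM in IP. *Dck* was at 15.7 and 10.5 CPM in input and at 19.1 and 9.74 CPM in IP, and *Ampd3* was at 8.95 and 5.51 CPM in input and at 10.02 and 6.18 CPM in IP. In both of these the replicates of IP differed more than IP did from input. *Dck*, at 147 to 178 CPM in the control RNA-seq libraries, was at 10.5 to 15.7 CPM in input libraries of cells with the same label. The same held for *Ampd2* (62.1 to 66.5 against 5.33 to 6.97 CPM), *Ampd3* (60.3 to 78.1 against 5.51 to 8.95) and *Adal* (33.5 to 40.5 against 4.66 to 5.90). Of the 10, only *Aprt* (133 to 148 against 329 to 340 CPM) and *Hprt* (218 to 235 against 245 to 328) were higher in input. Early progenitor genes summed to 728 to 826 CPM in the former and 69.7 to 92.2 CPM in input. The tables were prepared and normalized separately. By the study's methods, SLIM-seq libraries were amplified from the 3′ end of fragmented cDNA, whereas the RNA-seq used Smart-seq2. CPM of the experiments are therefore not on a common scale. The difference between them was not tested, and library type and cells cannot be told apart in it.

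**Figure D4:**
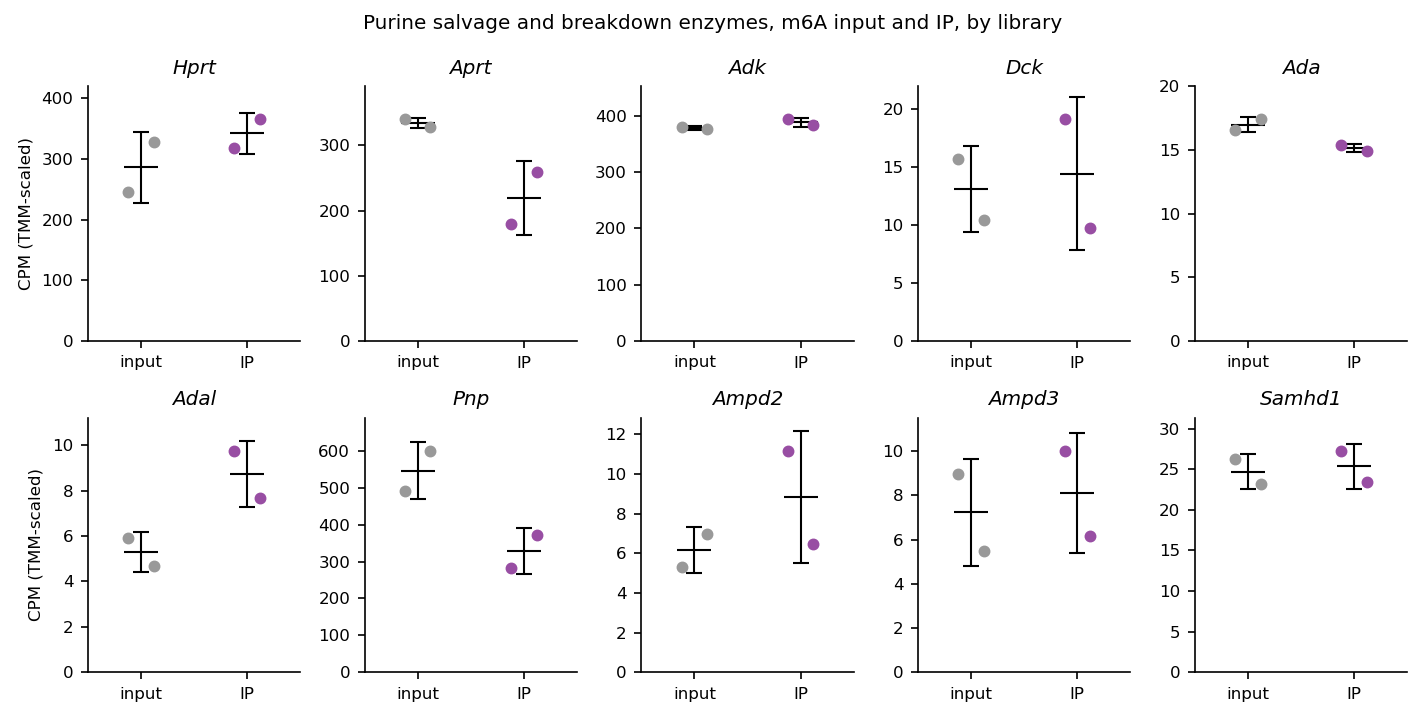
CPM (TMM-scaled, each axis from 0) of the 10 enzymes in the m6A input (grey) and IP (purple) libraries of control CFU-E cells (n = 2 each). Bars give the mean and SD. Aprt and Pnp are lower and Adal is higher in both IP libraries than in both input libraries, and none passes the edgeR test without a block at an adjusted p under 0.05.

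Letters of a form that METTL3 often methylates, GGACT in the strand of the mRNA, were counted in the longest protein-coding transcript of each gene. Over all 21877 genes with such a transcript, 87.6% held at least 1 and the median was 3 per transcript, or 1.01 per kb. *Ampd3* held 9 (2.20 per kb), *Samhd1* held 5 (1.27 per kb), *Adal* held 4 (1.61 per kb) and *Ampd2* held 3 (0.822 per kb). *Hprt* (1.55 per kb), *Dck* (0.65 per kb), *Ada* (1.18 per kb) and *Pnp* (0.680 per kb) held 2 each. *Aprt* (1.18 per kb) and *Adk* (0.55 per kb) held 1 each. The sites of *Adal* and *Pnp*, the enzymes at either end of IP over input, are shown with the motif in capitals and 10 bases on each side (plus strand of GRCm38). Those of *Adal* lie at chr2:121142632-121143150 (across a splice junction), chr2:121152527-121152551 and chr2:121155485-121155509 in the coding sequence and at chr2:121156162-121156186 in the 3′ UTR. Those of *Pnp* lie at chr14:50950602-50950626 in the coding sequence and at chr14:50952552-50952576 in the 3′ UTR.
Adal site 1: gggaagaaaaGGACTttacaagaat
Adal site 2: tggaccaagtGGACTtcgtgaggca
Adal site 3: agaaaaaggtGGACTcacttgaagc
Adal site 4: tacagtgctaGGACTctcttaaaag
Pnp site 1: tgctgctggaGGACTcaaccccaat
Pnp site 2: cataactgagGGACTtttgcttcat
A match is a description of the letters, and the counts per gene do not show which bases of a transcript were held by the antibody.

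A list of 52 other genes of purine handling gave the surroundings of the 10 enzymes. In the RNA-seq, 40 of the 52 were tested, of which 8 had a higher level (20%) and 6 a lower one (15%) in Kit-lo libraries, beside 12.1% and 9.83% of all genes. Their median log2 fold change was -0.22, as it was with *Ak4* (described next) set at its bound. At the step from the bases' nucleotides to AMP and GMP, *Gmpr*, GMP reductase, which turns GMP back to IMP, rose the most of the list. It was at 3.49, 5.49 and 5.15 CPM in control and 56.6, 34.2 and 30.8 CPM in Kit-lo libraries (log2 fold change 3.11, standard error 0.27, edgeR adjusted p = 2.6e-05), and 16.1% of its exonic bases overlap *Atxn1* on the opposite strand. Among the enzymes that lead from IMP towards AMP and GMP, *Adss* and *Impdh2* fell. *Adss*, adenylosuccinate synthase, had a log2 fold change of -1.08 (edgeR adjusted p = 3e-05), and *Impdh2*, IMP dehydrogenase, one of -0.63 (edgeR adjusted p = 2e-04), though *Impdh2* shares 43.2% of its 31-base words with a pseudogene. Of the other 4 tested at this step, named after their values were seen, none was called by the DEG thresholds. *Gmps* (log2 fold change -0.52, edgeR adjusted p = 0.00061) and *Adsl* (-0.28, edgeR adjusted p = 0.020) were lower by less than 1.5-fold. *Gmpr2* (-0.37, edgeR adjusted p = 0.21) did not pass the test. Nor did *Impdh1*, which catalyses the same reaction as *Impdh2*, at -0.02.

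Among 5′-nucleotidases, which take the phosphate off nucleotides, 2 of 5 tested rose, *Nt5c* with a log2 fold change of 0.70 (edgeR adjusted p = 0.00091) and *Nt5c3* with 0.64 (edgeR adjusted p = 0.00073). Of 10 kinases tested, *Ak1*, adenylate kinase, rose from 8.35 to 9.67 CPM in control to 39.2 to 46.9 CPM in Kit-lo libraries (log2 fold change 2.26), and *Guk1*, guanylate kinase, rose by 0.65 on the log2 scale. *Dguok*, the mitochondrial deoxyguanosine kinase, which like *Dck* phosphorylates purine deoxynucleosides, had a log2 fold change of -1.27 (edgeR adjusted p = 0.00016), opposite in direction to *Dck*. *Ak4*, a mitochondrial adenylate kinase, had 30, 49 and 40 counts in control and 0 counts in every Kit-lo library, and was at least 14.3-fold lower, with 3 counts in each library as the floor. It shares 11.6% of its 31-base words with *Ak3l2-ps*. Of 5 genes of phosphoribosyl pyrophosphate synthesis, which supplies *Hprt* and *Aprt* with their second substrate, 1 rose (*Prps1l3*, log2 fold change 0.67), and this gene shares 21.5% of its 31-base words with *Prps1*, at -0.34 and not called.

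Further along the breakdown route, *Gda*, guanine deaminase, which acts on guanine set free by *Pnp*, rose from 14.3, 15.03 and 22.5 CPM in control to 33.1, 42.1 and 38.4 CPM in Kit-lo libraries (log2 fold change 1.13, edgeR adjusted p = 0.0014). *Pgm2*, a phosphopentomutase that passes on the ribose 1-phosphate made by *Pnp*, fell from 173, 158 and 171 CPM to 69.0, 76.5 and 77.2 CPM (log2 fold change -1.17, edgeR adjusted p = 1.2e-05). With *Pnp2*, these were the 3 called of 8 tested in this group. *Xdh*, xanthine dehydrogenase, was not called (log2 fold change -0.67, standard error 0.35). Of 5 nucleoside transporters tested, *Slc28a2* fell (log2 fold change -2.32, edgeR adjusted p = 0.0011), from 94, 96 and 103 counts in control to 28, 20 and 14 in Kit-lo libraries, and it shares 46.3% of its 31-base words with *Gm14085*.

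**Figure D5:**
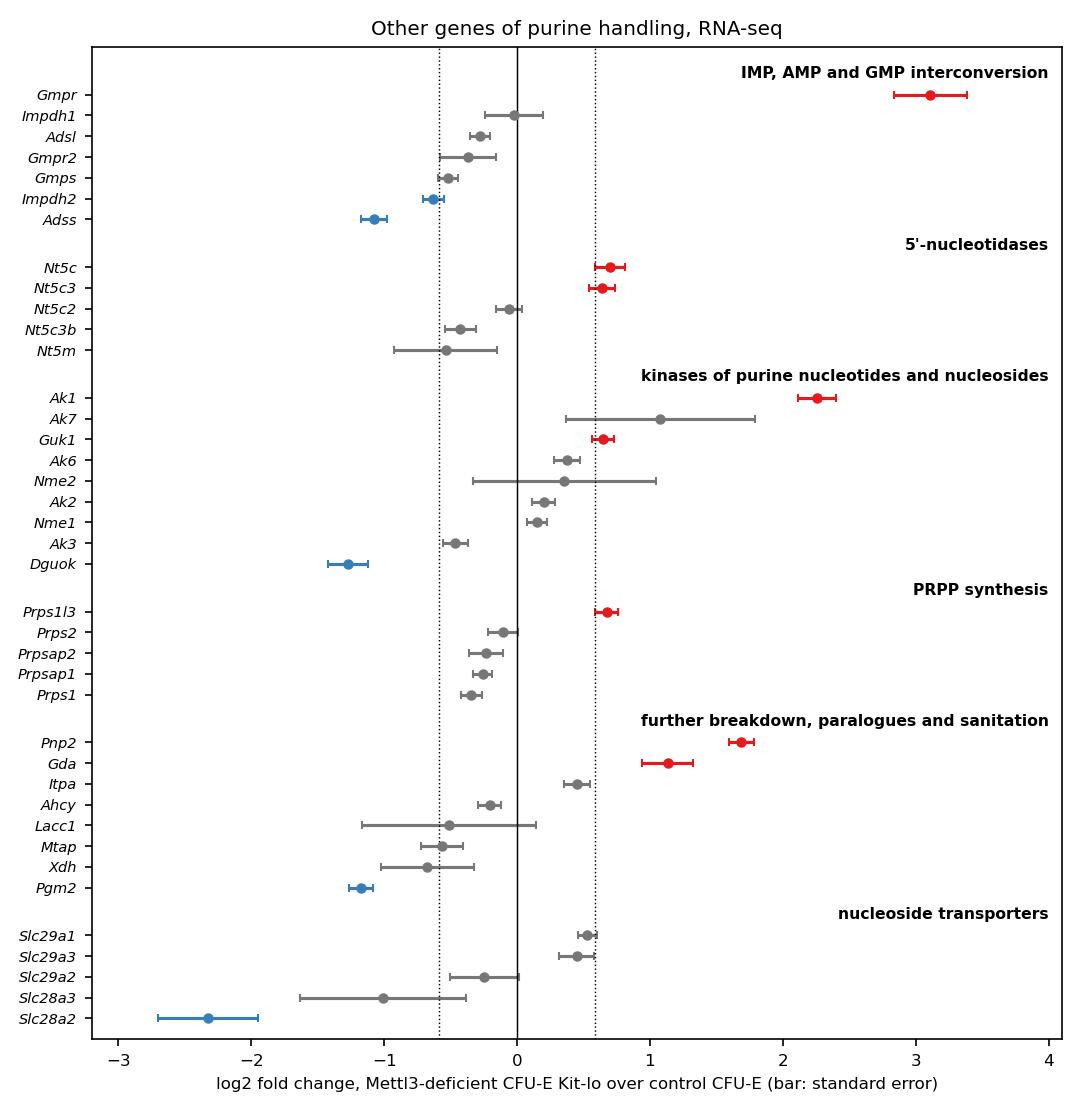
Log2 fold changes, with standard errors, of 39 of the 40 tested genes from the list of other purine genes, for Mettl3-deficient CFU-E Kit-lo over control CFU-E (n = 3 each), by group; Ak4, with 0 counts in every Kit-lo library, is left out. Red and blue mark genes called higher and lower, and dotted lines a fold of 1.5. Gmpr and Ak1 lie furthest to the right, at 3.11 and 2.26, and Slc28a2 furthest to the left, at -2.32.

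In the m6A libraries 40 of the 52 other genes were tested, and 2 were called higher in IP (5%, beside 7.9% of all genes) and 2 lower (5%, beside 7.86%). The 2 higher in IP were *Pgm2*, at 32.7 and 24.6 CPM in input and 83.5 and 45.7 CPM in IP (log2 fold change 1.17, edgeR adjusted p = 0.029), and *Adss*, at 31.6 and 27.8 CPM in input and 79.6 and 48.5 CPM in IP (log2 fold change 1.11, edgeR adjusted p = 0.024). Their longest coding transcripts held 1 GGACT each. Both of these calls were lost when any 1 library other than IP replicate 2 was left out. *Nt5c2* and *Nt5c3b*, named after their values were seen, were the 2 lower, with log2 fold changes of -0.75 and -0.77 (edgeR adjusted p = 0.037 and 0.040), and these calls were lost with library sizes alone, with upper-quartile scaling, and without either input library or IP replicate 1.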

How the data were processed

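RNA-seq and m6A (IP and input) libraries of sorted mouse CFU-E cells were analysed. The authors filtered reads with fastp 0.23.4, quantified transcripts with Kallisto 0.48.0 on mm10 (the submitters' processing notes also list GRCm39) and merged them to genes with tximport; the deposited estimated counts were whole numbers without normalization. The RNA-seq used Smart-seq2. SLIM-seq primers carried molecular identifiers, whose use in the counting is not stated. Totals ran from 17429262 to 21329242 counts per RNA-seq library and from 19421059 to 37142742 per m6A library. Intervals cover the spread between libraries.

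Groups came from the labels. Counts were tested with edgeR 4.0.16 in R 4.3.3 (TMM, filterByExpr, quasi-likelihood test, Benjamini-Hochberg adjustment), with 1 fit per experiment and no block. The fold threshold of 1.5 applied to RNA-seq only. The authors used DESeq2 with a TPM filter; DESeq2 1.42.0 and a filter of 1 TPM were alternatives, beside other normalizations, no filter, a replicate block and leaving out each library. The standard error is the log2 fold change over the square root of the F statistic. All 10 enzymes, the called genes of the other purine genes, *Mettl3* and *Kit* are named by rule. The enzymes and lists were chosen with earlier results of these data known. Coordinates and lengths come from GENCODE vM21 (GRCm38). The scripts were tested on simulated data. Figures used Python 3.11.15 and matplotlib 3.10.9.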

Additional observations from a re-analysis of the deposited data

How the results depend on the processing

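In the RNA-seq, *Dck* and *Adal* kept their calls in the 13 alternatives that refitted the data. The number of enzymes called higher, 2, became 4 and the number lower, 1, became 4 with no fold threshold, and 0 were called higher when the fold of 1.5 was itself the tested hypothesis. The latter left 4 of the 8 other purine genes called higher, and no fold threshold gave 13 in place of 6 called lower. With 1 library left out, 1 to 3 enzymes were higher, the 1 without control replicate 1, where *Ada* fell under the fold threshold. *Samhd1* (log2 fold change -0.0038) changed sign with library sizes alone (0.047) and, with 1 library left out, reached from -0.073 to 0.076, without passing any test. In the m6A libraries DESeq2 called 1 enzyme lower in IP, *Pnp* (-0.77). Leaving out IP replicate 2 gave 2, *Aprt* (-0.90) and *Pnp* (-0.95), and the range over libraries left out was 0 to 2. Other purine genes higher in IP ran from 0 to 4 and those lower from 0 to 2, and library sizes alone, upper-quartile scaling and the filter of 1 TPM gave 0, 0 and 1 lower. Near 0, *Adk* (-0.0015 by DESeq2 and with its size factors) and *Samhd1* (-0.0051 by both) changed sign, and with 1 library left out *Samhd1* ran from -0.097 to 0.14, *Dck* from -0.44 to 0.54 and *Ampd3* from -0.25 to 0.54, below 0 without input replicate 2 and without IP replicate 1. Over all genes, leaving out 1 m6A library gave 164 to 1358 higher and 427 to 968 lower. The cause of these changes was not tested.

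Replicate numbers are shared between the groups, but the labels do not say what they mark. Deviations from the group means of same-numbered libraries correlated at 0.034, -0.017 and -0.072 in the RNA-seq. In the m6A libraries the value was 0.21, and with 2 libraries a group both pairs must give the same value. It cannot decide whether these libraries were paired. No pairing is stated, so the numbers were not taken as pairs. With the replicate number as a block, the calls of the 10 enzymes in the RNA-seq were kept and *Ampd3* passed the fold threshold (0.59). In the m6A libraries the block called 2 enzymes lower in IP (*Aprt*, -0.63, and *Pnp*, -0.74) and 9 other purine genes lower, with 1783 genes higher and 1755 lower over all genes.

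With 2 libraries a group, changes of the size seen for *Adal* and *Ampd2* in IP did not pass the test, and counts of 83 to 466 per library lie behind these genes. The libraries labelled *Mettl3*-deficient were all Kit-lo and the controls were not.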
